A study of Mus musculus with 15 samples.

Results

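Granulocyte-macrophage progenitors (GMPs) whose working copy of Cebpa makes only the p30 isoform were compared with GMPs that keep a normal copy. The comparison takes 3 arrays labelled GMP fl/p30 and 3 labelled GMP fl/+, chosen by their titles, out of 15 arrays in the series, and it is described here across all 19937 genes measured. Each gene stands for the probe sets that carry its symbol alone, and where a gene had more than 1, the probe set with the highest mean over the 15 arrays was used. The series set mutant against control progenitors before leukaemia, in a search for deregulated genes. It also held 3 arrays of GMP fl/BRM2, 3 of preGM fl/p30 and 3 of preGM +/+, where preGMs are the more immature progenitors.

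The fl/p30 animals had the genotype cebpa fl/p30; Mx1Cre and the controls cebpa fl/+; Mx1Cre. All were female C57BL/6 mice taken 3 weeks after the conditional knockout, and their ages are not in the labels. Both groups carried the Cre recombinase under the Mx1 promoter, which interferon switches on in blood cells and in other tissues, so the floxed Cebpa copy was to be removed in both. The control thus had 1 normal copy after recombination and is not a wild type with 2. How completely the floxed copy was removed was not measured here. From cKit-enriched bone marrow, GMPs were taken as cKit+ and FcgRII+ cells negative for lineage markers (Lin), Sca1, CD150 and CD41. The titles carry numbers that are read here as animals, a different one for each of the 6 GMP arrays. The preGM fl/p30 arrays carry the same 3 numbers as the p30 GMPs. On that reading the p-values rest on the spread between animals, taken over all 5 groups with each array counted as independent. The 3 p30 animals thus enter that spread at both stages.

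C/EBPα, the protein of Cebpa, is a basic leucine zipper transcription factor that drives progenitors into the granulocyte and monocyte lineages. An internal start codon gives the shorter p30 isoform, which binds DNA but lacks part of the N-terminal transactivation region and the part that restrains E2F. Mutations that leave p30 as the remaining isoform occur in acute myeloid leukaemia. GMPs are the progenitors that normally give rise to neutrophils and monocytes.

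The values are log2 expression levels from Affymetrix Mouse Gene 1.0 ST arrays, so a difference of 1 is a doubling. A gene was called where limma's Benjamini-Hochberg adjusted p over all genes was under 0.05, and "rose" and "fell" are used only of called genes. Differences are p30 minus control with their standard error (SE), with n = 3 arrays per group. A fold is given only where the lower group's mean lay above the array medians (6.03 to 6.23), since lower values lie near background. Over pairs of the 6 arrays, the correlation across genes was between 0.9427 and 0.9916. The 6 arrays were not equally alike. The standard deviation among a group's arrays, as a root mean square over genes, was 0.319 in GMP fl/+ and 0.269 in GMP fl/p30, against 0.165 to 0.211 in the other 3 groups. The GMP and promyelocyte markers Mpo, Elane, Prtn3, Ctsg, Ms4a3, Fcgr3, Kit and Cd34 all lay above the array medians in both groups. Their mean level ran from 10.9 to 11.4 in the control arrays and from 9.76 to 11.2 in the p30 arrays, and none of the 8 was called.

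Of the 19937 genes, 1209 (6.06%) were called. They divided into 935 that rose in p30 GMPs (4.69%) and 274 that fell (1.37%), and 3989 genes had an unadjusted p under 0.05. The changes reached at least 2 on the log2 scale for 79 of the genes that rose and 16 of those that fell. The median difference was 0.91 among the genes that rose, -0.82 among those that fell and -0.040 over all genes. With each array centred on its housekeeping and ribosomal protein genes the median over all genes moved to -0.157. The split of calls then became 651 higher and 461 lower, so that the higher share went from 77.3% to 58.5%. For 3475 genes (17.4%) every p30 array lay on the same side of all control arrays, and of these 1827 were higher in p30 (9.16%) and 1648 lower (8.27%).

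**Figure D1:**
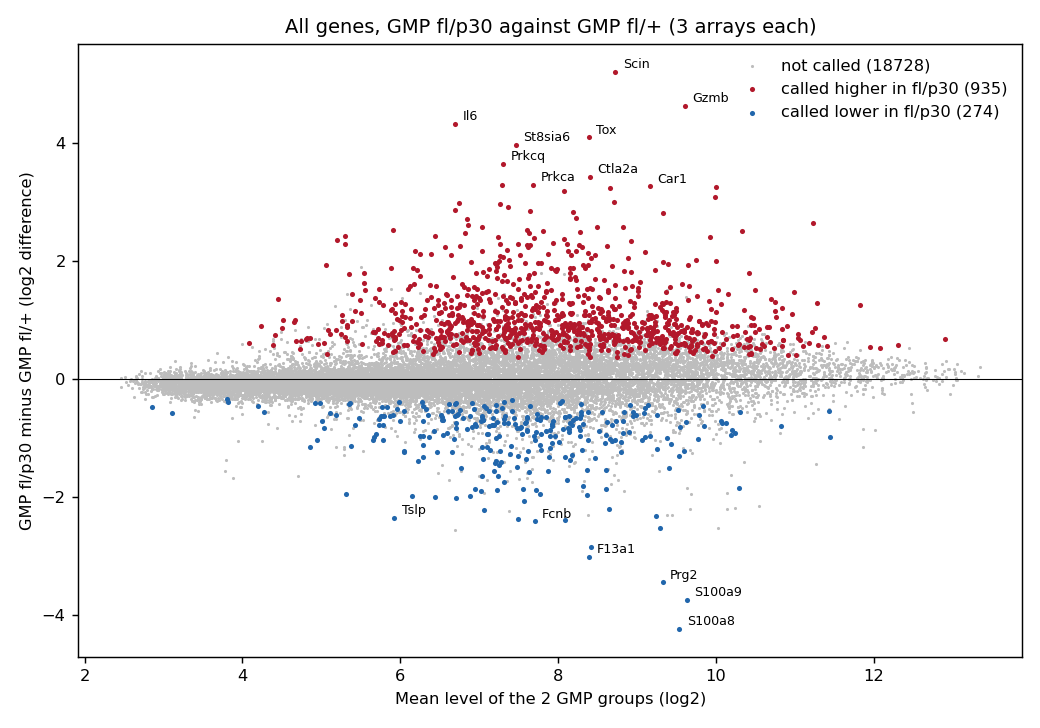
Each point is a gene: the horizontal axis is the mean log2 level of the 2 GMP groups and the vertical axis the log2 difference GMP fl/p30 minus GMP fl/+ (3 arrays each). Red points are the 935 genes that rose and blue points the 274 that fell; Scin (5.21) and S100a8 (-4.24) lie at the ends.

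How far the calls rest on single arrays was asked by leaving out each of the 6 arrays in turn. The call remained in all 6 fits for 453 genes (2.27%). Of the genes that rose, 404 kept it (2.03% of all genes), and of those that fell, 49 (0.246%). Without control replicate 1, 2152 genes were higher and 926 lower, and without control replicate 2 the counts were 576 and 126. They were 628 and 115 without control replicate 3, 474 and 63 without p30 replicate 1, 498 and 102 without p30 replicate 2, and 994 and 540 without p30 replicate 3. With only the 6 arrays in the fit, 158 genes were higher and 14 lower, and all 172 were among the 1209. A call that held in all 6 fits is named a stable call below. Each of those fits still took its spread from the arrays of all 5 groups, including the 3 with a smaller spread. A stable call therefore need not hold with only the 6 arrays in the fit. There limma's adjusted p was 0.135 for Fcnb, 0.131 for Ddx58, 0.104 for Anxa4 and 0.077 for F13a1, all stable calls. For the stable calls of Car1 and Gzmb it was 0.0335 and 0.00158.

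**Figure D2:**
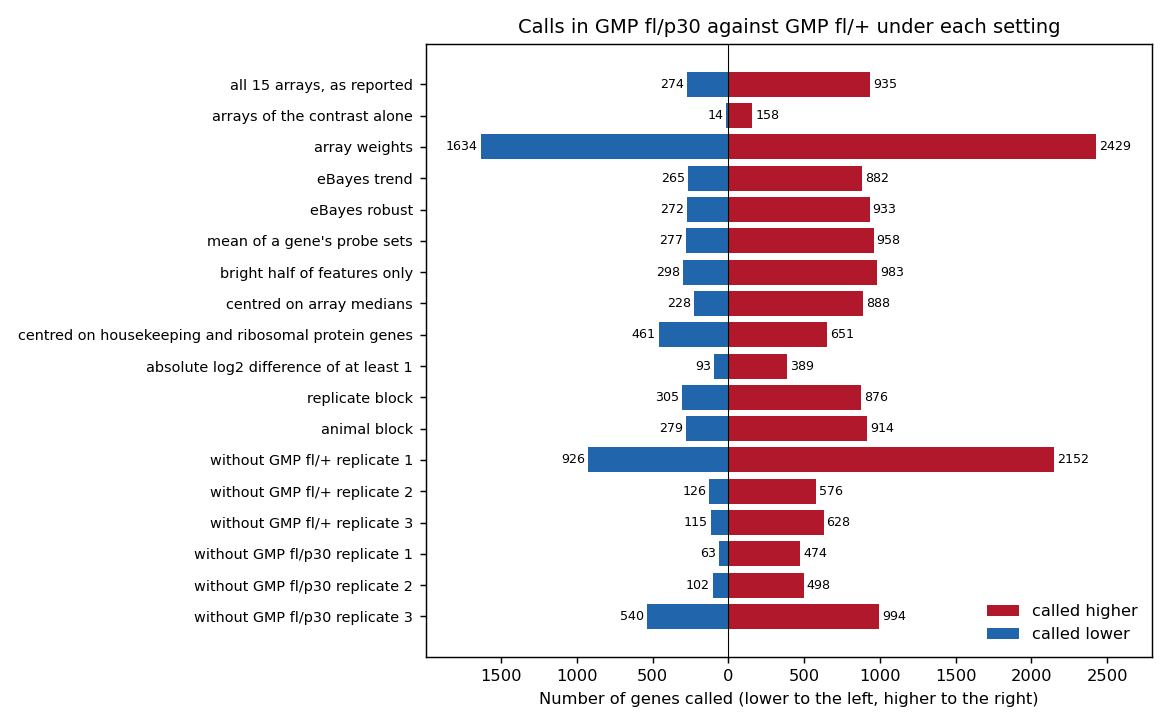
Bars give the number of genes called higher (red, to the right) and lower (blue, to the left) in GMP fl/p30 under each way of fitting, with the reported fit of all 15 arrays on top (935 and 274). The counts run from 158 and 14 with the 6 arrays alone to 2429 and 1634 with array weights.

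Cebpa itself (probe set 10552140) had levels of 8.70, 8.10 and 8.34 in control replicates 1, 2 and 3 and of 8.68, 9.22 and 9.30 in p30 replicates 1, 2 and 3. The first p30 array lay within the control range. The difference was 0.69 ± 0.18 (adjusted p = 0.0367), and the call was lost without control replicate 2 or 3 or p30 replicate 2 or 3. Which part of Cebpa the probes read is not known here, so its level checks nothing about the alleles. Of 10 genes of the C/EBP family and its partners 2 rose (20%), Cebpa being 1 of them, and 1 fell (10%). Cebpg, which encodes a short family member, rose by 0.81, and Cebpd, a factor of acute phase and late granulocyte programmes, fell by 0.99. Neither call was stable: both were lost without p30 replicate 1 or 2, and that of Cebpd also without control replicate 2. The family's median was 0.087, and it turned to -0.03 under the centring on housekeeping and ribosomal protein genes.

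Promoter sequence was examined because C/EBPα acts through DNA sites, and the letters searched for were TTGCNNAA on either strand (TTNNGCAA on the reverse). RefSeq promoters (GRCm38.p6), each with 250 bases before and 50 after the gene's start, matched 15562 of the genes. Several of the 10 genes that rose most and the 10 that fell most, Tox and Prg2 among them, had no promoter there. Of those that could be searched, Il6, S100a9 and Fcnb had such a match. Their 250 bases before the start are shown, with the matched letters in capitals, because these genes of opposite direction carry the same letters.
S100a9 promoter, chr3:90695722-90695971, minus strand: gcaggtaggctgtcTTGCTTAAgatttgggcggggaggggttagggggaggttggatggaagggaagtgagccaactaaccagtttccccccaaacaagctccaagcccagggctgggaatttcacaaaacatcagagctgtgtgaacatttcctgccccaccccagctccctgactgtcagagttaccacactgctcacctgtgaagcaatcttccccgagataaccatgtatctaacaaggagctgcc
Il6 promoter, chr5:30012864-30013113, plus strand: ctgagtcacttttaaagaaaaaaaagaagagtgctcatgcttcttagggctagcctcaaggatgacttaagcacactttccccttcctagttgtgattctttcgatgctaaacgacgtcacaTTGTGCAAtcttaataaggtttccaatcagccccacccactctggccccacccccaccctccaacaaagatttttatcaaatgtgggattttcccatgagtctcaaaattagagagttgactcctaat
Fcnb promoter, chr2:28084879-28085128, minus strand: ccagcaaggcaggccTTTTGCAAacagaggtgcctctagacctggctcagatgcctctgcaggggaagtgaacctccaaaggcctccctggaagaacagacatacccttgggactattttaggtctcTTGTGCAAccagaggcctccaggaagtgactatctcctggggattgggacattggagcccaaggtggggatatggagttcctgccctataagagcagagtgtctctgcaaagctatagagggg
The match began at -236 in S100a9, at -128 in Il6 and at -235 and -123 in Fcnb, counted from the gene's start. The letters were found in 9.76% of promoters of the genes tested, in 9.82% of those of genes that rose and in 9.7% of those of genes that fell. A match of letters is not a measured binding site.

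Granulocyte genes were among the largest decreases. S100a8 (probe set 10493831) encodes 1 subunit of calprotectin, the abundant calcium-binding protein of neutrophil cytoplasm. Its level was 11.95, 11.62 and 11.41 in the control arrays and 4.85, 6.87 and 10.54 in the p30 arrays. The groups did not overlap, and p30 replicate 3 lay close to the controls. S100a8 fell 18.9-fold (-4.24 ± 1.08, adjusted p = 0.0328). S100a9 (probe set 10499861), the other subunit, was at 11.86, 11.46 and 11.21 in controls and at 5.83, 7.13 and 10.34 in p30 arrays, again with p30 replicate 3 nearest the controls. It fell 13.4-fold (-3.74 ± 0.94, adjusted p = 0.0304). Both calls were lost without control replicate 2 or 3 or p30 replicate 1 or 2.

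The other granule genes had the same order of p30 arrays in several cases. Fcnb, a lectin of neutrophil granules, was at 9.52, 8.85 and 8.36 in controls and at 5.57, 6.16 and 7.77 in p30 arrays. It fell 5.32-fold (-2.41 ± 0.43, adjusted p = 0.00438), a stable call. Camp, the cathelicidin of secondary granules, fell 3.35-fold (-1.74 ± 0.43), and Ngp, another secondary granule protein, fell 5.22-fold (-2.38 ± 0.66). The arrays of Ngp overlapped, with control replicate 3 at 7.45 and p30 replicate 3 at 7.47. The call of Camp was lost without p30 replicate 1 or 2, and that of Ngp without those arrays or control replicate 1 or 2. Over the secondary granule and neutrophil list, 7 of 24 members fell (29.2%), 1 rose (Padi4, the histone citrullinating enzyme, 0.96, not called without control replicate 3 or p30 replicate 2) and the median was -0.738. The number that fell was 12 without p30 replicate 3, 3 without control replicate 2 or 3 and 1 without p30 replicate 1 or 2. The mean level of the list's members relative to the 15-array mean was 1.288, 0.791 and 0.709 in controls and -0.856, -0.322 and 0.745 in p30 arrays, so p30 replicate 3 lay within the control range. The primary granule list gave no call in 16 members, with a median of -0.225. Elane, neutrophil elastase, had the largest difference there (-2.52 ± 0.86, adjusted p = 0.109), with p30 arrays at 6.47, 8.98 and 10.85 against controls at 11.72, 11.25 and 10.90. In bulk samples, fewer cells of a type and less RNA per cell cannot be told apart.

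Of 21 known C/EBPα target genes in myeloid cells, 6 fell (28.6%) and 1 rose (4.76%), with a median of -0.552. The number that fell was 4 without control replicate 2 or 3 and 2 without p30 replicate 1 or 2, and p30 replicate 3 lay within the control range of the list's mean level (0.485, against 0.405 to 0.904). Those that fell were Fcnb, Camp, Csf3r, Gfi1, Klf4 and Il6ra. Csf3r encodes the receptor for the granulocyte growth factor G-CSF. Its levels were 8.40, 9.19 and 8.65 in controls and 6.74, 7.42 and 8.11 in p30 arrays, without overlap, and it fell 2.5-fold (-1.32 ± 0.33, adjusted p = 0.03). Gfi1, a repressor needed for granulocyte formation, fell 1.76-fold (-0.82 ± 0.17, adjusted p = 0.00932). Its arrays lay at 7.24, 7.31 and 7.41 in controls and at 6.40, 6.49 and 6.62 in p30, so that both groups were tight. Sox4, a factor of immature and leukaemic cells that C/EBPα is known to repress, rose 2.02-fold (1.01 ± 0.20, adjusted p = 0.00848). The calls of Fcnb, Gfi1 and Sox4 were stable. That of Csf3r was lost without control replicate 2 or 3 or p30 replicate 1 or 2, and that of Il6ra without control replicate 3 or p30 replicate 1 or 2. The call of Klf4 held in 1 of the 6 fits, the one without control replicate 3.

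Monocyte genes also fell. F13a1, a monocyte marker that encodes a clotting transglutaminase, stood at 10.08, 9.93 and 9.71 in controls and at 6.00, 6.31 and 8.35 in p30 arrays, and fell 8.11-fold (-3.02 ± 0.54, adjusted p = 0.004). Irf8, the transcription factor that directs progenitors to monocytes and dendritic cells, fell 3.29-fold (-1.72 ± 0.30, adjusted p = 0.00329), from 9.35, 8.98 and 8.61 to 6.82, 7.0 and 7.96. Both were stable calls without overlap of arrays. Itgax, the CD11c integrin of dendritic cells, went the other way, from 5.47, 5.77 and 5.65 to 7.84, 8.25 and 7.58 (2.26 ± 0.20, adjusted p = 3.07e-05), and Cx3cr1, a chemokine receptor of monocytes, rose 2.54-fold. Cx3cr1 lost its call without control replicate 2 or p30 replicate 1. The monocyte and dendritic list held 22 genes, with 2 called higher (9.09%) and 3 lower (13.6%), Klf4 being the other that fell. The number lower was 2 to 3 with 1 of the other arrays left out and 6 without p30 replicate 3. None of the 14 mature macrophage genes was called.

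Mast cell, basophil and eosinophil genes split: 5 of 20 rose (25%) and 4 fell (20%), and 8 of these 9 calls were stable. Cpa3, the carboxypeptidase of mast cell granules, rose 8.5-fold (3.09 ± 0.34, adjusted p = 0.000128), from 9.13, 7.36 and 8.85 in controls to 11.91, 11.49 and 11.20. Slc18a2, the vesicular monoamine transporter, rose 5.07-fold (2.34 ± 0.35), Gata2 3.81-fold (1.93 ± 0.23) and the chymase gene Cma1 by 1.52. Prg2, the eosinophil major basic protein, fell 10.9-fold (-3.45 ± 0.81, adjusted p = 0.0218), with controls at 11.02, 10.83 and 11.30 and p30 arrays at 5.61, 7.88 and 9.32. Its call was lost without control replicate 2 or 3 or p30 replicate 1 or 2. Hdc, which makes histamine, fell 4.62-fold (-2.21 ± 0.36, adjusted p = 0.00249), from 9.91, 9.89 and 9.46 to 6.65, 7.25 and 8.74. The basophil protease genes Mcpt8 (2.34-fold, -1.23 ± 0.20) and Prss34 (-1.51 ± 0.21) fell with it. The mean of the 8 mast cell and basophil markers ran from 7.67 to 8.16 in controls and from 8.15 to 8.40 in p30 arrays.

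**Figure D3:**
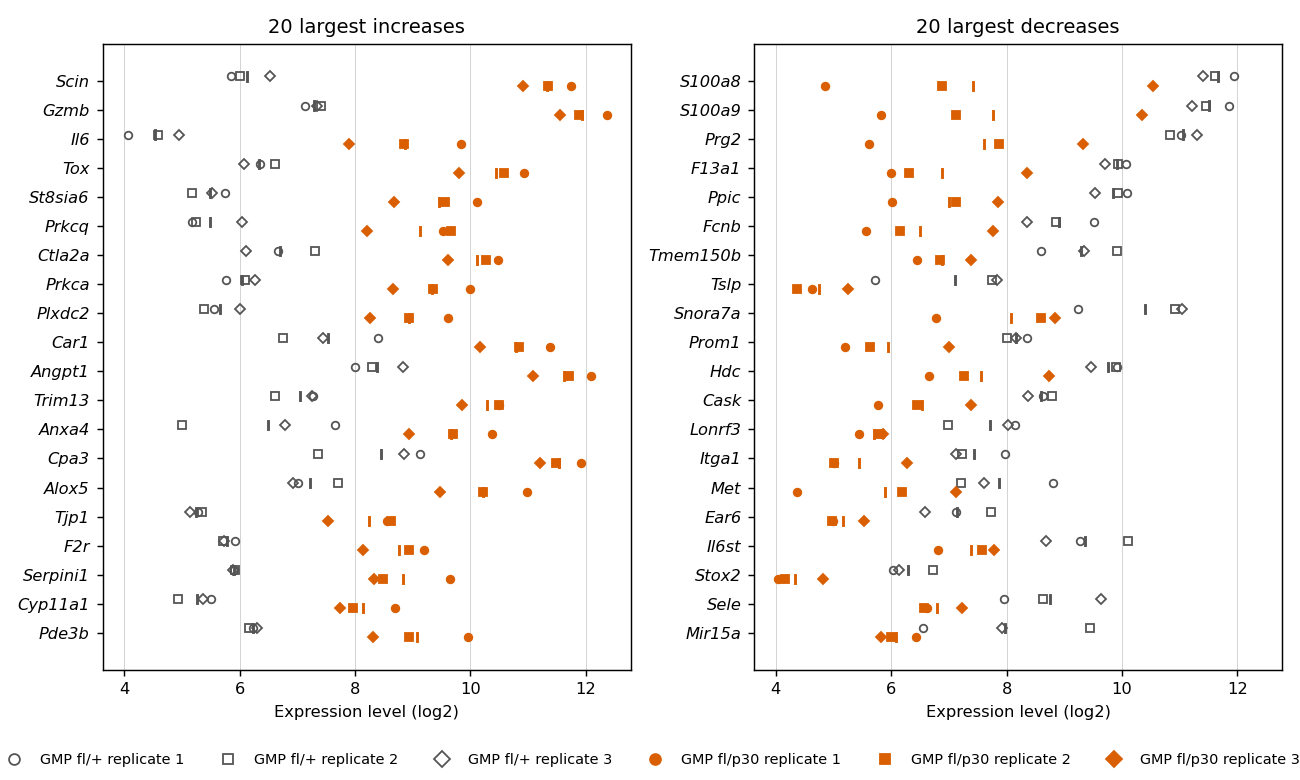
Log2 levels of the 20 genes with the largest increases (left) and the 20 with the largest decreases (right) among called genes whose arrays did not overlap. Open grey symbols are the 3 GMP fl/+ arrays, filled orange symbols the 3 GMP fl/p30 arrays, and short bars the group means; p30 replicate 3 (diamond) is the p30 array nearest the controls for S100a8 (10.54), S100a9 (10.34) and Prg2 (9.32).

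Members of the erythroid list rose in the largest share of any cell type list described here: 8 of 20 were called higher (40%), none lower, and the median was 0.737. The list, like the others, was chosen with earlier results of these data known. Car1 and Car2 are the carbonic anhydrases of red cell precursors. Car1 went from 8.40, 6.75 and 7.44 to 11.37, 10.84 and 10.16, a 9.6-fold rise (3.26 ± 0.49, adjusted p = 0.0013). Car2 rose 4.48-fold (2.16 ± 0.37). Gata1, the master regulator of the erythroid lineage, rose 2.08-fold (1.05 ± 0.20, adjusted p = 0.00529), with controls at 6.09, 6.35 and 6.31 and p30 arrays at 7.51, 7.38 and 7.02. Icam4, a red cell adhesion molecule, rose 2.42-fold, and Tspan8 and Mns1 rose by 1.34 and 1.11. Alas2 (0.92) and Slc4a1 (0.88), named after their values were seen, complete the 8, and the call of Alas2 was lost without any 1 of the 6 arrays. Of the 9 measured erythroid markers 4 rose (Gata1, Car1, Car2 and Icam4), none fell and the rest were not called. In both groups 1 erythroid marker, Rhag, lay below the array medians. The mean level of the 9 erythroid markers ran from 6.83 to 7.0 in controls and from 7.74 to 8.37 in p30 arrays. Of 12 megakaryocyte genes 2 rose (16.7%, against 4.69% of all genes): Itga2b (1.04) and Itgb3 (0.68), the chains of the platelet fibrinogen receptor. Itga2b encodes CD41, for which the sorted cells were negative, and its level was 6.43, 7.15 and 7.12 in controls and 7.89, 8.45 and 7.50 in p30 arrays. Neither call was stable: both were lost without p30 replicate 1 or 2, and that of Itgb3 also without control replicate 2. Of 6 measured sort gate genes Itga2b alone was called. Fcgr2b, the gene of FcgRII, was lower in the p30 arrays without overlap but was not called (-1.07 ± 0.30, adjusted p = 0.051). Fcgr3 had a difference of 0.000 ± 0.20. Among 18 GATA and erythroid-megakaryocyte factors, 5 rose (27.8%): Gata2, Nfe2, Gata1, Zfpm1 and Gfi1b. Another 3 fell (16.7%): Lmo2, a bridging cofactor, by 0.80, Klf2 by 0.63 and Mafg by 0.43. Of these 8 calls those of Gata2, Gata1 and Lmo2 were stable; every other one was lost without p30 replicate 2, among other arrays.

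Several genes better known from lymphocytes were among the largest increases. Gzmb (probe set 10420308), the granzyme B of killer cells, stood at 7.12, 7.41 and 7.35 in controls and at 12.37, 11.88 and 11.55 in p30 arrays, a 24.8-fold rise (4.63 ± 0.28, adjusted p = 8.16e-07). Tox (probe set 10511416), a nuclear factor of T-cell development, rose 17.1-fold (4.10 ± 0.30, adjusted p = 5.2e-06), from 6.35, 6.60 and 6.07 to 10.94, 10.58 and 9.80. Of 25 lymphoid transcription factors 7 rose (28%) and none fell. Rora, an orphan nuclear receptor of innate lymphoid cells, rose by 2.17, and Aff3, a nuclear elongation-linked protein of lymphoid cells, rose 4.5-fold (2.17 ± 0.18, adjusted p = 2.12e-05). Ikzf2, or Helios, rose 4.03-fold, from 8.29, 8.83 and 9.08 to 11.17, 10.85 and 10.23. Tcf12, Ikzf1 and Satb1 (the last named after its value was seen) rose by 0.93, 0.80 and 0.78, and 6 of the 7 calls were stable. Ikzf1 lost its call without control replicate 3 or p30 replicate 1.

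Of 19 T and NK genes, 5 rose (26.3%): Ccl5, Lat, Cd7, Cd3g and Klrd1. Lat, an adaptor of the T-cell receptor that mast cells also use, rose 4.12-fold (2.04 ± 0.29), and Ccl5, a chemokine, rose 4.89-fold (2.29 ± 0.27), from 6.72, 6.75 and 7.43 to 9.55, 9.05 and 9.17. The calls of Cd3g and Klrd1 each held in 1 of the 6 fits. The T and NK cell markers Cd3g, Cd3d, Klrd1 and Ncr1 lay below the array medians in both groups. The mean of the 8 measured markers ran from 6.10 to 6.26 in controls and from 7.01 to 7.06 in p30 arrays, and 4 of the 8 rose; their part in these results was not tested. Cd96 and Ctsw, an adhesion receptor and a cathepsin of killer cells, rose by 2.60 and 2.58, and Klrb1b, a killer lectin-like receptor, by 2.71, all as stable calls from control levels near background. Of 18 B lymphoid genes 2 rose (11.1%, against 4.69% of all genes). Dntt, the template-free DNA polymerase of early lymphocytes, rose by 1.45. Il7r, the interleukin 7 receptor, rose by 1.34 and was not called without p30 replicate 1. None of the 6 measured B cell markers was called.

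Among myeloid fate factors, 8 of 29 rose (27.6%) and 4 fell (13.8%). The number that rose was 5 without control replicate 3, 4 without p30 replicate 1 and 3 without p30 replicate 2. Id2, an inhibitor of basic helix-loop-helix factors, rose 6.64-fold (2.73 ± 0.43, adjusted p = 0.00169), from 7.82, 6.51 and 6.27 to 10.45, 8.96 and 9.38. Zbtb16, the PLZF repressor, rose 2.97-fold (1.57 ± 0.24). Runx1 rose 1.92-fold (0.94 ± 0.21), a call lost without control replicate 3 or p30 replicate 1 or 2. Of 21 stem and multipotent progenitor genes, 6 rose (28.6%, against 4.69% of all genes) and 2 fell (9.52%, against 1.37%). Angpt1, the ligand of the Tie2 receptor, rose 9.52-fold (3.25 ± 0.26, adjusted p = 1.16e-05), from 8.0, 8.29 and 8.83 to 12.10, 11.71 and 11.08. Bmi1, a Polycomb protein of self-renewal, and Mllt3, a stem cell regulator, rose 2.03-fold and 2.04-fold. Prom1 and Hlf fell by 2.23 and 0.64. The call of Mllt3 was lost without control replicate 3 or p30 replicate 1 or 2, that of Prom1 without p30 replicate 1, and that of Hlf held in 1 of the 6 fits. Of 25 Hoxa cluster and leukaemia-linked genes 1 rose (4%, against 4.69% of all genes), and the list's median was -0.007. Only Dnmt3a, a DNA methyltransferase, passed the test there (0.87 ± 0.16, adjusted p = 0.00559).

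**Figure D4:**
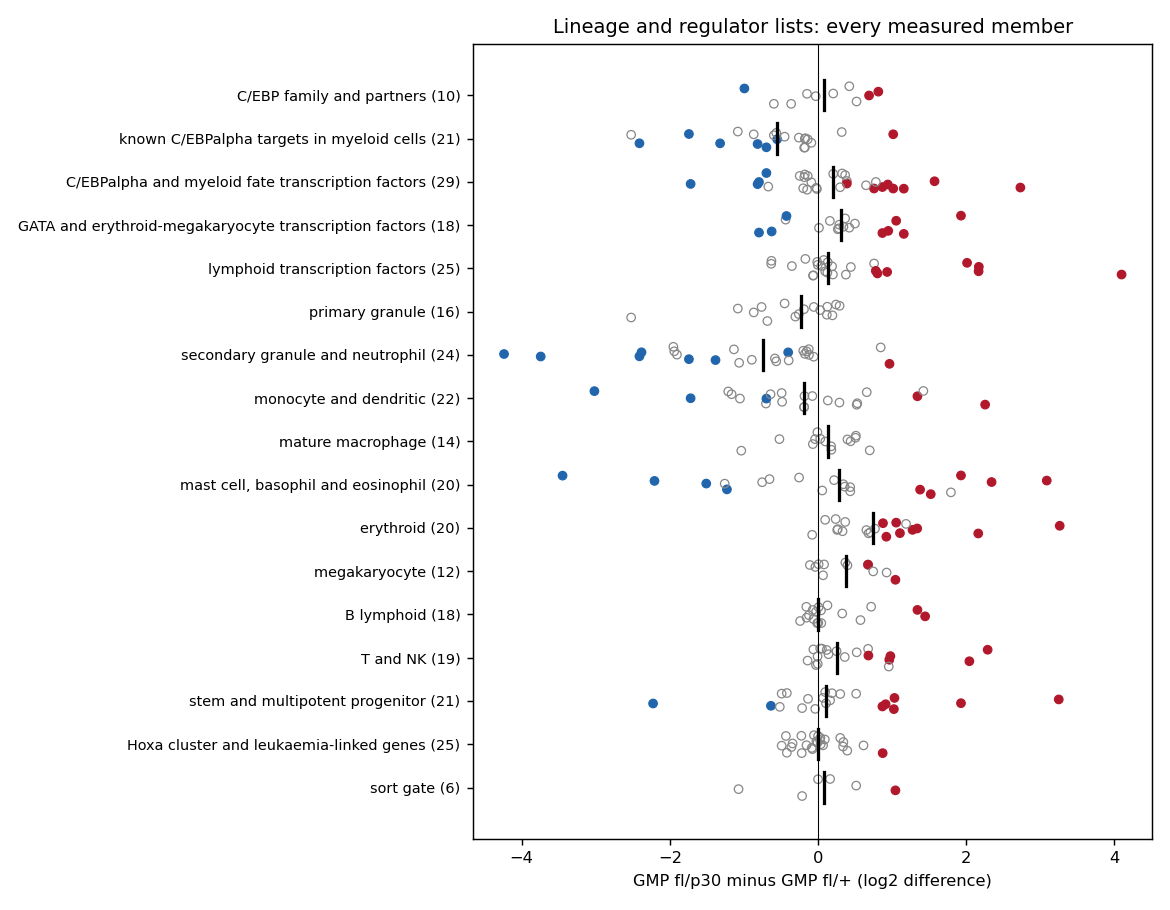
Every measured member of 17 lineage and regulator lists, by its log2 difference GMP fl/p30 minus GMP fl/+ (horizontal axis); the number measured stands in brackets. Red and blue points rose and fell, open points were not called, and black bars are list medians, from -0.738 for secondary granule and neutrophil genes to 0.737 for erythroid genes.

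Chromatin regulators had 10 of 37 members higher (27%) and 1 lower (2.7%), with a median of 0.299. Kdm5b, a histone H3K4 demethylase, rose 3.05-fold (1.61 ± 0.18, adjusted p = 0.000139), with controls at 8.85, 8.66 and 8.80 and p30 arrays at 10.71, 10.43 and 9.99. Tet1, Chd3 and Crebbp rose by 1.27, 0.91 and 0.80, and each call was lost without p30 replicate 1, those of Tet1 and Crebbp also without control replicate 2 and those of Tet1 and Chd3 also without p30 replicate 2. Chd7, a chromatin remodeller, fell 3.61-fold (-1.85 ± 0.49), and its arrays ran from 11.04 to 11.38 in controls and from 8.31 to 10.61 in p30. The call of Chd7 was lost without control replicate 2 or 3 or p30 replicate 1 or 2. Under the centring on housekeeping and ribosomal protein genes 6 chromatin regulators were higher and 3 lower. The number higher was 6 without control replicate 2, 4 without p30 replicate 1 and 5 without p30 replicate 2.

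Calcium-, actin- and kinase-related genes followed. Scin (probe set 10400072), the gene of the actin-severing protein adseverin, had the largest rise of all (5.21 ± 0.23, adjusted p = 2.47e-08), from 5.85, 6.01 and 6.52 to 11.74, 11.35 and 10.91. Of 38 gelsolin family and actin regulators 6 rose (15.8%) and 1 fell (2.63%), against 4.69% and 1.37% of all genes. Marcks, a protein kinase C substrate that ties actin to the membrane, rose 7.09-fold (2.83 ± 0.34), and its relative Marcksl1 rose 3.81-fold (1.93 ± 0.26). Fgd4, an exchange factor for Cdc42, fell 2.68-fold, a call lost without control replicate 2 or 3 or p30 replicate 1 or 2. Of 34 genes of protein kinase C and diacylglycerol signalling 5 rose (14.7%) and 3 fell (8.82%). Prkcq, the kinase of the T-cell synapse, went from 5.17, 5.24 and 6.04 to 9.52, 9.67 and 8.21 (3.65 ± 0.34), and Prkca from 5.77, 6.10 and 6.27 to 9.99, 9.35 and 8.65 (3.29 ± 0.29). Plcg1, which makes diacylglycerol, rose 2.61-fold, and Rasgrp1 rose by 0.82. Rasgrp2, an activator of Rap1, fell 2.84-fold (-1.51 ± 0.37), Plcb1 by 0.71 and Dgkz by 0.65. The calls of Rasgrp1, Rasgrp2 and Dgkz were not stable: each was lost without control replicate 3 or p30 replicate 1 or 2, and those of Rasgrp2 and Dgkz also without control replicate 2.

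Of 18 S100 genes 3 rose (16.7%), the calprotectin pair fell and 13 were not called, with a median of 0.029. S100a6, S100a10 and S100a4 encode small calcium-binding proteins of the cytoskeleton and the membrane. S100a10 went from 10.03, 9.40 and 9.14 to 11.69, 11.34 and 10.92, a 3.47-fold rise (1.79 ± 0.26), and S100a6 and S100a4 rose 3.57-fold (1.84 ± 0.34) and 3.24-fold (1.70 ± 0.23). All 3 calls were stable. Of 12 annexins 3 rose (25%, against 4.69% of all genes). Anxa4, which binds membranes in the presence of calcium, rose 9.08-fold (3.18 ± 0.51), from 7.66, 5.01 and 6.79 to 10.37, 9.70 and 8.94, and the controls were spread widely. Anxa5 and Anxa6 rose by 0.91 and 0.88, and both calls were lost without control replicate 2 or 3 or p30 replicate 1, that of Anxa5 also without p30 replicate 3 and that of Anxa6 also without p30 replicate 2.

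Of 68 cytokine ligands 3 rose (4.41%, against 4.69% of all genes) and 3 fell (4.41%, against 1.37%). Il6 (probe set 10520452), an inflammatory cytokine, was near background in controls at 4.07, 4.58 and 4.94 and stood at 9.84, 8.86 and 7.89 in p30 arrays (4.33 ± 0.44, adjusted p = 6.53e-05). Tnfsf10, the death ligand TRAIL, rose by 2.10 and Ltb, lymphotoxin beta, by 0.81. Tslp, an epithelial cytokine, fell by 2.35 to levels near background, and Il12a and Ebi3, subunits of the interleukin 12 family, fell by 1.64 and 1.15. The call of Ltb was lost without control replicate 3 or p30 replicate 2, and that of Ebi3 without control replicate 2 or 3 or p30 replicate 1 or 2. The receptors gave more: of 72 cytokine receptors 9 rose (12.5%) and 5 fell (6.94%).

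Csf2rb encodes the beta chain shared by the receptors for GM-CSF, interleukin 3 and interleukin 5. Csf2rb2 encodes a near-identical beta chain of the interleukin 3 receptor. Csf2rb2 rose 4.96-fold (2.31 ± 0.36, adjusted p = 0.00169), from 7.15, 6.50 and 6.71 to 9.97, 9.07 and 8.24, and Csf2rb, named after its value was seen, rose 2.09-fold (1.06 ± 0.26), a call that held in 2 of the 6 fits. How far the probes of each also read the other is not known here. Csf2ra, the alpha chain for GM-CSF, fell 2.15-fold (-1.11 ± 0.27), in the opposite direction to Csf2rb. Its call was lost without control replicate 2 or 3 or p30 replicate 1 or 2. Il6st, the gp130 chain shared by interleukin 6 family receptors, fell 3.9-fold (-1.96 ± 0.30, adjusted p = 0.00146), from 9.28, 10.10 and 8.68 to 6.82, 7.57 and 7.78. With Il6ra at -0.55, both receptor chains for interleukin 6 fell while the ligand's mRNA rose. The call of Il6ra was not stable. Il12rb2 rose 3.84-fold (1.94 ± 0.22), and Il18r1 and Tnfrsf18 rose by 1.5 each.

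Adhesion and surface genes also moved. Of 31 integrins 7 rose (22.6%) and 1 fell (3.23%). Itga4, the VLA-4 chain that holds progenitors in marrow, rose 2.77-fold (1.47 ± 0.22), from 10.41, 9.93 and 10.45 to 12.14, 11.67 and 11.37, and its partner Itgb7 rose 2.23-fold. Itga1, a collagen receptor chain, fell by 2.0 (adjusted p = 0.00234). Cdh1, the epithelial cadherin, rose 5.95-fold (2.57 ± 0.22, adjusted p = 2.16e-05), with controls at 7.25, 7.10 and 7.28 and p30 arrays at 10.22, 9.92 and 9.21. Tjp1, the tight junction scaffold ZO-1, rose by 2.98. These 2 were the only members of 87 cadherins, protocadherins and junction genes that rose (2.3%, against 4.69% of all genes). Cldn12, a claudin gene of the list, fell by 1.11, a call lost without control replicate 2 or p30 replicate 1. Pecam1, the CD31 adhesion molecule, and Pdgfrb, a growth factor receptor, rose 2.83-fold and 3.91-fold. They are 2 of 7 stroma and endothelium markers, and the others were not called. Of the 7, 4 lay above the array medians in both groups, and Cdh5, Cxcl12 and Lepr lay below them.

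Of 32 SLAM, Ly6 and Gimap genes 7 rose (21.9%), among them the GTPases of lymphocytes Gimap6 (2.29 ± 0.34), Gimap9 (4.4-fold, 2.14 ± 0.24), Gimap4 (1.30), Gimap5 (1.01) and Gimap8 (0.66). The calls of Gimap4 and Gimap8 were lost without control replicate 2 or p30 replicate 2, that of Gimap4 also without p30 replicate 3 and that of Gimap8 also without control replicate 3 or p30 replicate 1. Glycosyltransferases had 13 of 107 members higher (12.1%) and 1 lower (0.935%). St8sia6, a sialyltransferase that builds disialic acid, went from 5.74, 5.17 and 5.52 to 10.12, 9.56 and 8.67 (3.97 ± 0.37). Fut8, which adds the core fucose of N-glycans, rose 2.72-fold (1.44 ± 0.18) and Ugcg, which makes glucosylceramide, 2.91-fold. Galnt3, an O-glycosylation enzyme, fell 2.75-fold.

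Of 32 purine receptors and ectonucleotidases 6 rose (18.8%) and none fell. Dpp4, a dipeptidase that binds adenosine deaminase, rose 7.03-fold (2.81 ± 0.23, adjusted p = 1.16e-05), with controls at 7.82, 7.81 and 8.13 and p30 arrays at 10.92, 10.99 and 10.28. The ATP-gated channel genes P2rx1, P2rx4 and P2rx7 rose 3.63-fold, 3.2-fold and 1.97-fold, all as stable calls. Alox5, the 5-lipoxygenase that starts leukotriene synthesis, rose 8.04-fold (3.01 ± 0.34), from 7.01, 7.71 and 6.92 to 10.98, 10.21 and 9.46. Lpcat2, which makes platelet-activating factor, rose 4.15-fold (2.05 ± 0.20). Among fatty acid and phospholipid enzymes, the desaturase genes Fads2, Scd2 and Fads1 rose 5.15-fold, 2.44-fold and 2.02-fold, and Far2, a fatty acyl reductase, fell 3.7-fold. The calls of Fads1 and Far2 were lost without control replicate 2 or 3 or p30 replicate 2, and that of Far2 also without p30 replicate 1. Cyp11a1, the side-chain cleavage enzyme of steroid synthesis, rose by 2.87 (adjusted p = 3.64e-05). Solute carriers as a family (15 of 379 higher, 3.96%) were close to the background share of 4.69%.

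Interferon response genes had 7 of 28 members higher (25%), none lower, and a median of 0.496. Rtp4 rose 4.27-fold (2.09 ± 0.39), Ddx58, the RNA sensor RIG-I, 3.93-fold (1.97 ± 0.36) and Usp18, which removes ISG15, 3.16-fold (1.66 ± 0.31). Ddx58 stood at 7.47, 5.65 and 7.26 in controls and at 8.73, 9.01 and 8.56 in p30 arrays, without overlap but with 1 low control. Ifitm1, an interferon-induced membrane protein, rose 6.22-fold (2.64 ± 0.36), and a second probe set of the gene gave 3.45. Under the centring on housekeeping and ribosomal protein genes 4 of the 28 were higher. The number was also 4 without control replicate 2 or 3 or p30 replicate 1, and 3 without p30 replicate 2. Of 27 p53 targets and apoptosis genes 6 rose (22.2%): Trp53inp1, a stress-induced nuclear protein, 5.72-fold (2.52 ± 0.23, adjusted p = 3.07e-05), Perp, an adhesion protein, 2.78-fold (1.48 ± 0.14), and Sesn1, Xiap, Bcl2l11 and Birc3 by 0.57 to 1.08. The calls of Sesn1, Xiap and Birc3 were lost without p30 replicate 2, those of Sesn1 and Birc3 also without p30 replicate 1 and that of Birc3 also without control replicate 2.

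None of 27 G2 and M phase genes was called, with a median of -0.509 and 2 members above 0. Their mean level relative to the 15-array mean was 0.406, -0.159 and 0.072 in controls and -0.921, -0.050 and 0.023 in p30 arrays, so p30 replicates 2 and 3 lay within the control range. Without p30 replicate 1 the median was -0.119, without control replicate 1 it was -0.303 with 1 member called lower, and without p30 replicate 3 there were 5 called lower. Aurkb, a mitotic kinase, differed most (-1.03 ± 0.29, adjusted p = 0.0521), with p30 arrays at 7.86, 9.09 and 9.21 against controls between 9.50 and 9.93. Of 37 E2F and S phase genes 3 fell (8.11%, and 6 members without p30 replicate 3), namely Cdc45, Tk1 and E2f4, and all 3 calls were lost without control replicate 2 or p30 replicate 1 or 2, those of Cdc45 and Tk1 also without control replicate 3. Of 18 cyclin-dependent kinases, cyclins and inhibitors 2 rose (11.1%), with a median of 0.128. The larger rise was that of Rbl2, the p130 pocket protein of resting cells, which rose 2.27-fold (1.18 ± 0.16, adjusted p = 0.000541). Housekeeping genes, ribosomal proteins and Myc targets gave no call in 9, 55 and 24 members. With centring on housekeeping and ribosomal protein genes 4 of the 27 G2 and M phase genes were called lower, as were 1 ribosomal protein gene and 1 Myc target.

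Of 59 small nucleolar RNA genes 4 fell (Snora7a, Snora44, Snora73a and Snora73b; 6.78%, against 1.37% of all genes), and the median was -1.124. The count was 38 without control replicate 1, 7 without p30 replicate 3, 1 without p30 replicate 2 and 0 without control replicate 2 or 3 or p30 replicate 1. Averaged over the 59 genes, the level relative to the 15-array mean was -0.397, 0.837 and 1.189 in the controls and -1.117, -0.209 and -0.233 in the p30 arrays, so that control replicate 1 lay within the p30 range. None of the 4 calls was stable, and each was lost without control replicate 2 or 3 or p30 replicate 1. Of 300 microRNA genes 2 fell (0.667%), a count that became 27 without control replicate 1, 1 without control replicate 2 or p30 replicate 3 and 0 without any other of the 6 arrays. They were Mir15a (-1.90 ± 0.53, adjusted p = 0.0482) and Mir677 (-1.49 ± 0.39, adjusted p = 0.0353), and both were lost without control replicate 2 or 3 or p30 replicate 1 or 2, Mir15a also without p30 replicate 3. Mir15a stood at 6.55, 9.45 and 7.93 in controls and at 6.42, 6.00 and 5.82 in p30 arrays. The probes read the primary transcript or the hairpin and do not measure the mature arms. The mature arms of both are shown from RefSeq (GRCm38.p6) with the seed, bases 2 to 8, in capitals, because the seed sets which targets an arm can pair with. No 2 of the 4 arms share a seed.
mmu-miR-15a-5p: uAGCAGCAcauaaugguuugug
mmu-miR-15a-3p: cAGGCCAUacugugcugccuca
mmu-miR-677-5p: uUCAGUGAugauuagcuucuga
mmu-miR-677-3p: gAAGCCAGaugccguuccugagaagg

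Genes called in the same direction often lay side by side in RefSeq gene order (GRCm38.p6, used for order only). Of the 935 genes that rose, 171 (18.3%) neighboured another that rose, against 8.99% of all 19852 genes placed. Of the 274 that fell, 24 (8.76%) neighboured another that fell, against 2.75%. Opposite calls lay side by side less often. Of the 935 genes that rose, 19 neighboured one that fell, against 546 of all 19852 genes placed (2.75%). Of the 274 that fell, 19 neighboured one that rose, against 1784 of all genes placed (8.99%). The loci named next are examples of opposite calls close together and not a pattern over all genes. Trim13, a ubiquitin ligase gene, rose 9.41-fold (3.23 ± 0.22, adjusted p = 3.95e-06), from 7.27, 6.62 and 7.25 to 10.49, 10.50 and 9.85, and lies in the same stretch as Mir15a. The stretch also holds Dleu2 (-0.01), Kcnrg (0.52) and Mir16-1 (-0.84), named after their values were seen, and none of the 3 was called. In the S100 cluster S100a4 and S100a6 lie beside S100a8 and S100a9. In the granzyme and chymase locus Gzmb, Gzmc and Cma1 rose while Mcpt8 and Gzmf fell. The differences of Gzmc (0.65, named after its value was seen) and Gzmf (-0.35) lay at levels near background. Neighbouring probe sets may share transcript, which was not tested.

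Whether these differences were particular to GMPs was asked through preGM fl/p30 minus preGM +/+, which uses other control animals and a control with 2 normal copies. Of the 19937 genes, 334 (1.68%) were called there. Of the 935 genes that rose in p30 GMPs, 769 had a difference of the same sign in preGMs, 88 were also called higher and 1, P2rx7, was called lower. Of the 274 that fell, 220 had the same sign and 45 were also called lower. Over all genes 51.9% had the same sign. The 2 fl/p30 groups share their animals. Gzmb (5.23), Scin (4.79) and Zfp711 (3.14) had differences in preGMs close to or above those in GMPs, and F13a1 (-5.07) went further down there. Angpt1 (0.99), Anxa4 (0.50) and Csf2rb2 (-0.11) had much smaller ones, as did Fcnb (-0.20) and Prom1 (-0.04) among the genes that fell. The mean of Fcnb lay below the array medians in both preGM groups, the +/+ control included. Its small difference there therefore cannot show whether the decrease was weaker in preGMs.

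The test of the difference between the stages called 1 gene (0.00502%), P2rx7, and 2616 genes had an unadjusted p under 0.05. P2rx7 was 0.98 higher in p30 GMPs and 0.68 lower in p30 preGMs. The difference of 2.26 for Angpt1 did not pass (adjusted p = 0.072). With the animal as a random block, which the shared p30 animals call for, 76 genes were called. Without control replicate 1 there were 1482 calls, without p30 replicate 3 there were 117, without GMP fl/BRM2 replicate 1 there were 15, without preGM fl/p30 replicate 2 there were 4 and without control replicate 2 there were 3. P2rx7 itself lost the call with any single preGM +/+ array left out, and also without control replicate 3, p30 replicate 2, GMP fl/BRM2 replicate 3, or preGM fl/p30 replicate 1 or 3.

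The other mutant, GMP fl/BRM2, carries another mutant Cebpa allele and was compared with p30 GMPs directly. The difference then uses no control array, while its p-value rests on the spread of all 15 arrays. Tox was the 1 gene called (0.00502%): it was higher in p30 than in BRM2 GMPs by 2.25 ± 0.30 (adjusted p = 0.0482), and 688 genes had an unadjusted p under 0.05. The call held without control replicate 2, where 2 genes were called, and without p30 replicate 3, where 12 were, and it was lost with any other of the 15 arrays left out. Pdcd1 (1.28 ± 0.19, adjusted p = 0.0809) and Cxcr2 (-3.0 ± 0.47, adjusted p = 0.0997), named after their values were seen, came next. Against the shared control, the p30 and BRM2 differences stood at 5.21 and 4.72 for Scin, 4.63 and 4.51 for Gzmb, 3.25 and 2.92 for Angpt1, and 4.10 and 1.85 for Tox. They were -4.24 and -2.19 for S100a8, -3.02 and -2.60 for F13a1, and -1.98 and 0.04 for Met, the hepatocyte growth factor receptor gene. Since both sets use the same 3 control arrays, their likeness is not counted as a result.

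**Figure D5:**
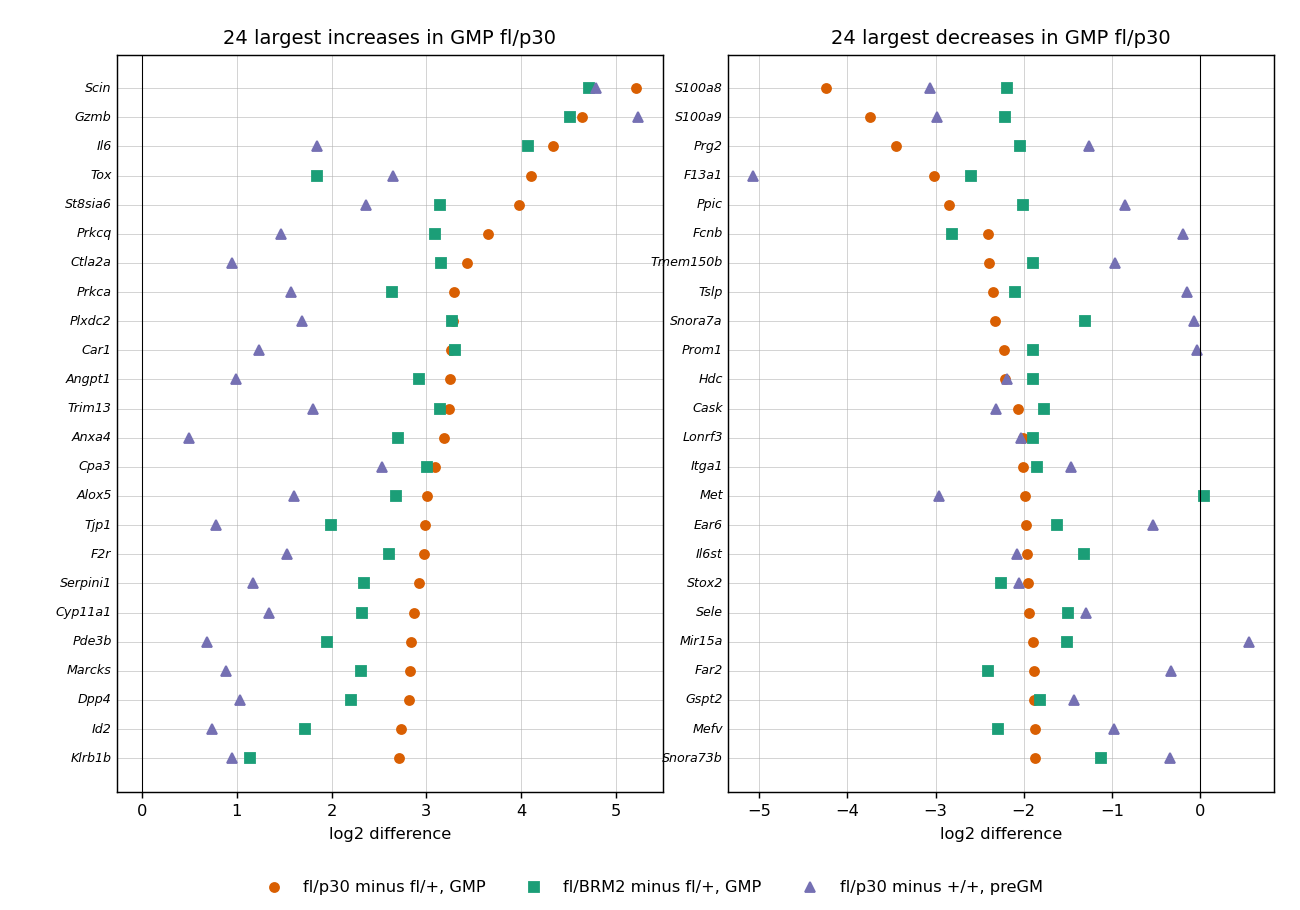
Log2 differences of the 24 largest increases (left) and decreases (right) in GMP fl/p30 (orange circles), beside GMP fl/BRM2 minus the same control (green squares) and preGM fl/p30 minus preGM +/+ (purple triangles). For Tox the 3 values are 4.10, 1.85 and 2.65, and for Mir15a they are -1.90, -1.51 and 0.56.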

How the data were processed

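Per the submitters' processing notes, the arrays were processed with affy and RMA (versions not given in the sources used here), which corrects background, normalises between arrays and summarises probes; the deposited series matrix holds the resulting log2 values of 34760 probe sets, from 1.99 to 14.1. Raw intensities were not used here, and the number of arrays limits the precision. The platform annotation gave 21640 probe sets 1 symbol, 1321 several and 11799 none, which left 19937 genes, 954 of them with more than 1 probe set. All 15 arrays were fitted with 1 mean per group (limma 3.58.1 in R 4.3.3, lmFit and eBayes, 10 residual and 4.24 prior degrees of freedom), so that the 5 groups share the estimate of spread, and p-values were adjusted over all genes by Benjamini-Hochberg. The procedure was also run on simulated data with independent arrays and, for each gene, the same spread in every group. The real groups differ in spread and the fl/p30 groups share animals, so that run cannot tell how the procedure behaves there. Named genes are Cebpa, the 30 largest called differences each way without overlap of arrays, up to 6 called members each way per gene list (up to 2 where none was called), the sort gate genes, called microRNAs and the leading interaction genes; clone and predicted-gene names were left out. The comparison and all 73 gene lists were chosen with earlier results of these data known. The replicate numbers did not pair p30 with control arrays: same-numbered correlations were -0.204, -0.0806 and -0.00946. The genome build of the array annotation is not given in the sources used here.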

Additional observations from a re-analysis of the deposited data

Results flagged for a closer look

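P2rx7, an ATP-gated channel gene, drew attention because the test of the difference between stages called it: the p30 difference in GMPs exceeded that in preGMs by 1.655 (adjusted p = 0.0269 in limma), with 0.979 in GMPs and -0.675 in preGMs. The preGM controls were +/+ and the GMP controls fl/+, so stage and control genotype cannot be told apart in that value.

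Probe sets without a single gene symbol stood outside the gene comparison and also carried signal: 107 of 13120 (0.816%) were called in p30 against control GMPs, 68 higher and 39 lower, and 21 of the 107 had several symbols. Among probe sets with 1 symbol, 723 (3.34%) were called in the same kind of fit.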

How the results depend on the processing

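Against 935 genes higher and 274 lower, the 6 arrays alone gave 158 and 14, array weights 2429 and 1634, a size limit of 1 on the log2 scale 389 and 93, and centring on housekeeping and ribosomal protein genes 651 and 461. Leaving out 1 array gave 474 to 2152 higher and 63 to 926 lower. The animal as a random block gave 914 and 279. The replicate block gave 876 and 305, though the replicate numbers do not pair these samples. Of the 313 named genes, 17 lost the call under the replicate block and 214 with the 6 arrays alone. The call was lost for 126 of them without p30 replicate 1, 112 without p30 replicate 2 and 13 without control replicate 1. For the stage difference (1 gene), the arrays of the contrast alone gave 4 genes, array weights 1991, a mean-variance trend 2 and the animal block 76. For that difference limma called 0 genes with housekeeping centring (2769 at an unadjusted p under 0.05) and 0 with the replicate block (2499 unadjusted), and leaving out 1 array gave 0 to 1482. For p30 against BRM2 (1 gene), limma called 0 with the arrays of the contrast alone (780 unadjusted) and 0 with the replicate block (702 unadjusted). Array weights gave 283, median centring 2, housekeeping centring 2 and leaving out 1 array 0 to 12. Of probe sets without 1 symbol (107), the 6 arrays alone gave 0, array weights 494 and leaving out 1 array 36 to 1394. The 6-array fits have fewer residual degrees of freedom and take the spread from those 6 arrays alone. For p30 against control GMPs that spread was 0.319 in GMP fl/+ and 0.269 in GMP fl/p30, against 0.165 to 0.211 in the other groups. The cause was not tested for any setting. Among the 313 named genes, none had a called difference that changed sign in p30 against control GMPs.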

Other observations

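Of the named genes called with more than 1 probe set, 2 had a second probe set of opposite sign: Prkch, a protein kinase C gene, at 1.04 and -0.63, and Sema4d, a semaphorin gene, at 1.62 and -0.02. All 30 probe sets of Chd7 were lower in p30 GMPs, by -0.34 to -2.56.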
